A study of Mus musculus with 3 samples.

Results

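Endothelial cells (ECs) of the mouse lung were compared between 1 library taken 6 h after an intravenous injection of B16-F10 melanoma cells and 1 control library taken 6 h after an injection of buffer. An EC was a barcode with 1000 to 5000 detected genes, under 20% of UMIs from mitochondrially encoded genes, and at least 2 UMIs of Pecam1 and Cdh5 together, where a UMI is a tag that marks 1 captured RNA molecule. This gave 11231 ECs in the control library and 10583 at 6 h, 21814 of the 22434 barcodes that passed the gene and mitochondrial limits in the libraries compared, and the whole series held 43842 barcodes with at least 300 genes. The UMIs of all ECs of a library were summed, whatever their vessel type, and scaled to CPM (the UMIs of a gene per 1000000 UMIs of the sum).

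ECs line the lung capillaries in which circulating tumor cells are first arrested. They hold the barrier through junctions built on cadherin-5 (Cdh5), and they can switch within hours from a resting state to an activated state with immediate early transcription factors, NF-kB and JAK-STAT targets, leukocyte adhesion molecules and secreted (angiocrine) factors. In the alveolar wall, broad thin ECs called aerocytes (aCap) cover most of the surface where gas passes, and smaller general capillary ECs (gCap) lie between them. B16-F10 is a highly invasive pigmented melanoma line that is syngeneic with C57BL/6 mice and arrests in the pulmonary microvasculature when given intravenously.

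All mice were wild-type C57BL/6 and received their injection through the tail vein: PBS in the control group, and 200000 B16-F10 cells in 100 µl of PBS in the melanoma group. Lungs of both groups were digested with collagenase at 37 °C for 1 h before Pecam1-positive, Ptprc-negative cells were sorted, so that both libraries include the time in warm enzyme. Melanoma cells marked with a tracker dye were also collected from the lungs and, per the labels, put into the 6 h sample. The labels give 2 mice per treatment, whereas the methods give 3 for the experiment with a 30 h sample, and the mice of a sample were pooled into 1 library. A further library, from mice taken 30 h after the melanoma cells, is given for side-by-side values. It had no buffer control of its own and is set beside the same 6 h control.

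The control library held 140601123 UMIs, of which 90853430 were in ECs, and the 6 h library 132566934, of which 87340328 were in ECs. The median EC had 7782 UMIs and 3164 genes in the control library and 8033 UMIs and 3204 genes at 6 h. The defining genes were present in both: Pecam1, an adhesion molecule of EC contacts, stood at 1097 CPM in the control library and 1136 CPM at 6 h, and Cdh5 at 1636 and 1583 CPM. The median EC carried 20 UMIs of the 2 genes in the control library and 21 at 6 h, and 251 barcodes in each library entered with exactly 2. ECs of the libraries shared 38 barcode sequences. Each group is 1 library, so that no replicate error exists and nothing was tested: intervals are exact, at 95%, and cover counting error only, and every fold describes these libraries.

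Most of the EC transcriptome stood at the same level in both libraries. Of 10166 genes that averaged 5 CPM or more across both libraries, 55.9% lay within 1.1-fold, and the median log2 ratio was -0.01. The limit is on the mean, so a gene under 5 CPM in 1 library can pass through the library where it is higher. Examples in the lists below are Csf2, Inhbb, Myc, Mt2, Dusp5, Col15a1, Col18a1, Acta2, S100a8 and S100a9, which passed through the 6 h library. Angptl4 passed through the control library. For such genes the filter fixes which library is higher. At 1.5-fold or more, 209 genes (2.06%) were higher at 6 h and 139 genes (1.37%) were lower, and the count of each gene list is to be read against these shares. At 2-fold or more the numbers were 49 higher and 16 lower, and at 4-fold or more 12 higher and 0 lower. The counting interval of a log2 ratio reached a median of 0.07 to each side, and for 160 of the higher and 81 of the lower genes the whole interval lay beyond 1.5-fold. Around that limit, Etv6 went from 138 to 208 CPM and was counted, and on the other side Scn7a went from 622 to 414 CPM and was counted while Elmo1 went from 391 to 261 CPM and was not.

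**Figure D1:**
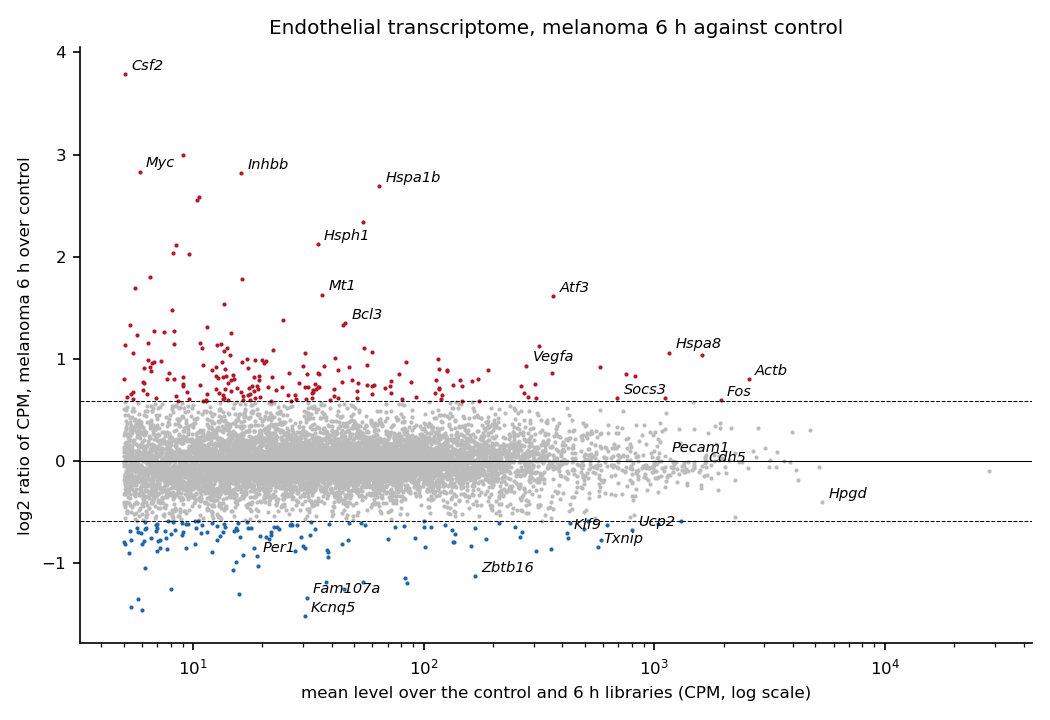
Log2 ratio of CPM at 6 h over control (vertical axis) against the mean level over both libraries (horizontal axis, CPM, log scale) for the 10166 genes with at least 5 CPM. Each point is 1 gene, red where higher and blue where lower by 1.5-fold or more (dashed lines). The cloud is centred near 0, with 209 genes above the upper line and 139 below the lower.

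The list with the most members higher at 6 h, together with the reactive capillary markers described further on, was that of the chaperones. Heat shock proteins refold damaged proteins, and their genes are switched on together by heat shock factor 1. Of 25 listed chaperones and co-chaperones with at least 5 CPM, 16 were higher at 6 h by 1.5-fold or more and 0 lower, with a median log2 ratio of 0.74, beside 2.06% of all genes higher and a median of -0.01. Summed over the list, chaperones made up 3779 CPM of the control ECs, 7089 CPM at 6 h and 4388 CPM at 30 h.

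Within the family, the stress-inducible Hsp70 genes differed most. Hspa1b (chr17:34956436-34959238, GRCm38) stood at 17.2 CPM in the control library and 111 CPM at 6 h, a ratio of 6.45 (interval 6.11 to 6.81). Hspa1a, its near-identical neighbour on chromosome 17, stood at 18.1 and 91.5 CPM. Because reads of such copies can be assigned to either, the split between these genes is uncertain. Hsph1, a nucleotide exchange factor of the Hsp70 family, stood at 12.9 and 56.4 CPM, a ratio of 4.36. The abundant constitutive chaperones were each about 2-fold higher: Hspa8, the constitutive Hsp70, went from 754 to 1573 CPM. Hsp90ab1, the constitutive cytosolic Hsp90, went from 1056 to 2163 CPM, and the inducible Hsp90aa1 from 199 to 434 CPM. Of the co-chaperones, Stip1, which links Hsp70 to Hsp90, went from 38.5 to 81.0 CPM and Dnaja1, an Hsp40, from 405 to 765 CPM. The mitochondrial chaperonin pair was included, with Hspe1 at 89.3 and 164 CPM and Hspd1 at 88.2 and 145 CPM. Other stress chaperones were closer to 1 or lower: Bag3 stood at 110.3 and 115.8 CPM, and the small heat shock gene Hspb8 at 26.3 and 19.6 CPM, a log2 ratio of -0.43. At 30 h, Hspa1b was at 10.4 CPM and Hspa1a at 13.3 CPM, below their control levels.

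The promoters of 4 of these genes are shown because they carry the heat shock element core, the word GAANNTTC or TTCNNGAA (each its own reverse complement, so that both strands are covered; the words do not overlap here). Each run is the 250 bases before the RefSeq transcription start, read 5′ to 3′ on the strand of the gene (GRCm38.p6), with the core in capitals. Hspa1a is at chr17:34972157-34972406 (minus strand), Hspa1b at chr17:34959239-34959488 (minus strand), Hsph1 at chr5:149636316-149636565 (minus strand) and Hspb1, a small heat shock protein at 227 CPM in the control library and 382 CPM at 6 h, at chr5:135887669-135887918 (plus strand).
Hspa1a: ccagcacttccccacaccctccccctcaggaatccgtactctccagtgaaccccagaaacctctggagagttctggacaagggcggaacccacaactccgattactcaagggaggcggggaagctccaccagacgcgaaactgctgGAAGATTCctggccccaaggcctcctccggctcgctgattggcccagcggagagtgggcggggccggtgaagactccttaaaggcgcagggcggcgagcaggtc
Hspa1b: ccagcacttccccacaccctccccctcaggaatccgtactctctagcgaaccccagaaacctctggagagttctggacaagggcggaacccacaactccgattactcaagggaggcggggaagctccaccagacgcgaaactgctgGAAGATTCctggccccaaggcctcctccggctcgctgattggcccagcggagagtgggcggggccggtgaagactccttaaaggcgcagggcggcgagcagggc
Hsph1: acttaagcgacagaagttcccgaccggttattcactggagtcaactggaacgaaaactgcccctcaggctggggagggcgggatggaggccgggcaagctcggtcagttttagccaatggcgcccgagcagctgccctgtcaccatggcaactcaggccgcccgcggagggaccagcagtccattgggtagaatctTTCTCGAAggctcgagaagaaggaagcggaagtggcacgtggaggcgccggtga
Hspb1: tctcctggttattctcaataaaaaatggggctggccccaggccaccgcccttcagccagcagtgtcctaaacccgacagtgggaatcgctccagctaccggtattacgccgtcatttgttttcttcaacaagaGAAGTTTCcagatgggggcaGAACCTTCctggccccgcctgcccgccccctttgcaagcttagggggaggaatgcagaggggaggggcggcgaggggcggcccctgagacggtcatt

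The Hspa1a and Hspa1b promoters carry the core at the same place, beginning 104 bases before the start. Of the 20 tested chaperones with a promoter in the table, 10 held the core in these 250 bases, and of the 13 among them that were higher by 1.5-fold, 8 held it. Over all 27025 promoters of the same length the share was 14.5%. A match is a description of the letters and not evidence of binding.

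Metallothioneins, small cysteine-rich proteins that bind zinc, were higher as well. Mt1 stood at 17.7 CPM in the control library and 54.9 CPM at 6 h, a ratio of 3.09, and Mt2 at 3.78 and 15.4 CPM. Of the 11 tested genes of the metallothionein and zinc transport list, these 2 were the ones past 1.5-fold, beside 2.06% of all genes higher. The zinc transporters lay between log2 ratios of 0.02 and 0.38. At 30 h Mt1 stood at 3.28 CPM. Both genes were more abundant in empty droplets than in ECs, Mt1 at 99.1 CPM in the control library and 251 CPM at 6 h, and in barcodes with neither Pecam1 nor Cdh5 it was also detected more often (18.8% and 29.7% at 2000 UMIs a barcode, against 1.97% and 5.36% of ECs). With the profile of empty droplets subtracted at a share set by surfactant genes, the log2 ratio of Mt1 was 2.77 in place of 1.63, and without barcodes that carried several markers of another cell type it was 1.29.

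The endoplasmic reticulum chaperone Hspa5 (BiP), the main target of the unfolded protein response, went from 198 to 329.5 CPM and was the 1 gene of 28 on the ER stress and amino acid list that was higher by 1.5-fold. Mthfd2, an enzyme of mitochondrial folate metabolism, was the 1 lower gene, at 20.6 and 13.7 CPM. For 28 genes, 1 in each direction is close to the shares of all genes, 2.06% higher and 1.37% lower. The list had a median log2 ratio of 0.25. Above 0 were 24 of 28 genes, beside 46.4% of all genes tested. They included the disulphide isomerase Pdia6 (0.50) and the transcription factors Xbp1 (0.38) and Atf4 (0.33).

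The promoters of Mt1 (chr8:94178839-94179088, plus strand), Mt2 (chr8:94172368-94172617, plus strand) and Hspa5 (chr2:34771840-34772089, plus strand) follow in the same layout, to show where the elements searched for lie. Capitals mark the metal response element core (TGCACNC or TGCGCNC on either strand) in Mt1 and Mt2, and the ER stress element (CCAAT, then 9 bases, then CCACG, on either strand) in Hspa5.
Mt1: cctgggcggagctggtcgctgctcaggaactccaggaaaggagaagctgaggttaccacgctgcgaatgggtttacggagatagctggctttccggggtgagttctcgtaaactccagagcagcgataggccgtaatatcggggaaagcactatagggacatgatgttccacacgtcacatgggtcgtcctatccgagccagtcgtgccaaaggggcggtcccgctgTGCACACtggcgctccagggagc
Mt2: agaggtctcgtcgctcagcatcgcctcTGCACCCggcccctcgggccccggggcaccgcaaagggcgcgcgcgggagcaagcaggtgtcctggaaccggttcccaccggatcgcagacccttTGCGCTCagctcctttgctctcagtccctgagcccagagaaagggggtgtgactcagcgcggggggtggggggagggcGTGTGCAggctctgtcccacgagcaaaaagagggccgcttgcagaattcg
Hspa5: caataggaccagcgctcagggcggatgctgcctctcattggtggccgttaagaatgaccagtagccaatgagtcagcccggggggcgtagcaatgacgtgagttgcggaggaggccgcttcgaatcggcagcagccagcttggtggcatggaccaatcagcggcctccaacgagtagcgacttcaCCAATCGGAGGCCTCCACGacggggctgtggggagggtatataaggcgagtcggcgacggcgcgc

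The short metal response core was common, in 23.8% of all promoters of this length, while the ER stress element was in 0.13% of them. Of the 25 tested genes of the ER stress list with a promoter, 7 held it, and their log2 ratios ran from 0.08 (Dnajc3) to 0.73 (Hspa5).

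Immediate early genes, which are transcribed within minutes of a stimulus without new protein synthesis, were the second group. All 29 tested members had a log2 ratio above 0, beside 46.4% of all genes. Of them, 12 were higher by 1.5-fold or more and 0 lower, beside 2.06% and 1.37%, and the median was 0.52. Atf3, a stress-induced repressor of the ATF/CREB family (chr1:191170296-191218039), stood at 179.8 CPM in the control library and 550.4 CPM at 6 h, a ratio of 3.06 (3.01 to 3.12). Egr1, a zinc finger factor, went from 537 to 968 CPM, and its relative Egr3 from 13.9 to 24.8 CPM. Fos, the AP-1 subunit, went from 1550.1 to 2339 CPM and Junb from 1180.1 to 1759 CPM, while Jun, their dimer partner, was at 2721 and 2789 CPM. The proto-oncogene Myc, low in lung ECs, stood at 1.44 CPM in the control library and 10.3 CPM at 6 h, a ratio of 7.13, and Dusp5, a nuclear phosphatase of ERK, at 4.82 and 11.6 CPM. At 30 h Atf3 was at 128 CPM, Egr1 at 354 CPM and Fos at 887 CPM, each under its control level.

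The cyclic AMP response element (TGACGTCA), which ATF/CREB proteins bind, was in the 250 bases before the start of 3 of the 25 immediate early genes with a promoter (Btg2, Dusp1 and Maff), and in 1.77% of all promoters. The AP-1 word TGANTCA was in 1 of the 25, against 7.82% of all. The E-box CACGTG, to which clock proteins bind, was in 4 of 11 clock genes and in 6.86% of all promoters. The STAT word TTCNNNGAA was in 2 of the 25 genes of the JAK-STAT list with a promoter (Socs3 and Sbno2). Its share over all promoters was 8.13%, so the list as a whole held no more of it. Both genes are among the 5 of the list that were higher by 1.5-fold or more. Each word was sought on both strands.

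NF-kB drives the inflammatory activation of ECs, and its targets include its own inhibitors. Of 23 tested genes, 5 were higher by 1.5-fold or more and 0 lower, beside 2.06% and 1.37% of all genes, and the median log2 ratio was 0.27. Bcl3, a nuclear partner of the p50 and p52 subunits that is also a STAT3 target, went from 25.7 to 65.5 CPM, a ratio of 2.55 (chr7:19808462-19822770). The subunits of the non-canonical arm were higher, Nfkb2 at 15.9 and 26.2 CPM and Relb at 31.2 and 50.7 CPM, while the canonical subunit Nfkb1 stood at 154 and 152 CPM. Tnfaip3 (A20), a deubiquitinase that ends the signal, went from 11.1 to 21.6 CPM, whereas the inhibitor Nfkbia went from 462 to 558 CPM, short of 1.5-fold.

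Of the JAK-STAT and interleukin-6 family list, 5 of 32 genes were higher, beside 2.06% of all genes, 0 lower, with a median of 0.32 and 28 genes above 0. Socs3, the feedback inhibitor of gp130 receptors, went from 546 to 837 CPM and Socs1, which restrains interferon receptors, from 14.5 to 23.6 CPM. Sbno2, a transcriptional co-regulator downstream of STAT3, stood at 106 and 183 CPM, and Stat3 itself at 221 and 309.5 CPM. Of the receptors, the oncostatin M receptor Osmr went from 67.1 to 98.0 CPM and the leukemia inhibitory factor receptor Lifr from 295 to 212 CPM, so that members of the same receptor family lay on opposite sides of 1. The STAT5 target Cish, at 116 and 113 CPM, differed little.

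The study named a reactive capillary cluster (rCap) and chose its markers on cells that included these libraries, so their direction is no independent evidence. Of 43 tested markers, 16 were higher by 1.5-fold or more and 0 lower, beside 2.06% and 1.37% of all genes. Their median log2 ratio was 0.44. Inhbb, the subunit of activin B (chr1:119415465-119422248), had the largest ratio of the genes with at least 10 CPM: 4.01 CPM in the control library and 28.3 CPM at 6 h, a ratio of 7.05 (6.32 to 7.90). Disp2, a relative of the Hedgehog-releasing protein Dispatched, went from 7.32 to 25.3 CPM and was at 29.5 CPM at 30 h, while Inhbb was at 7.29 CPM there. Samsn1, an adaptor of lymphocyte signalling, went from 8.24 to 18.3 CPM. The list is partial: it leaves out Tmem252 and Adamts9, which the study also counts as rCap markers and followed by RT-qPCR with others of the list. In these libraries Tmem252 (88.5 and 164 CPM) and the protease Adamts9 (110 and 183 CPM) were also past 1.5-fold beside Inhbb and Bcl3. The kinase Pim3 (109 and 156 CPM), Osmr and the HDL receptor Scarb1 (121 and 141 CPM) of the same panel had ratios of 1.43, 1.46 and 1.16. Susd6, a p53 target, was the 1 marker below 0, at 243 and 181 CPM.

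**Figure D2:**
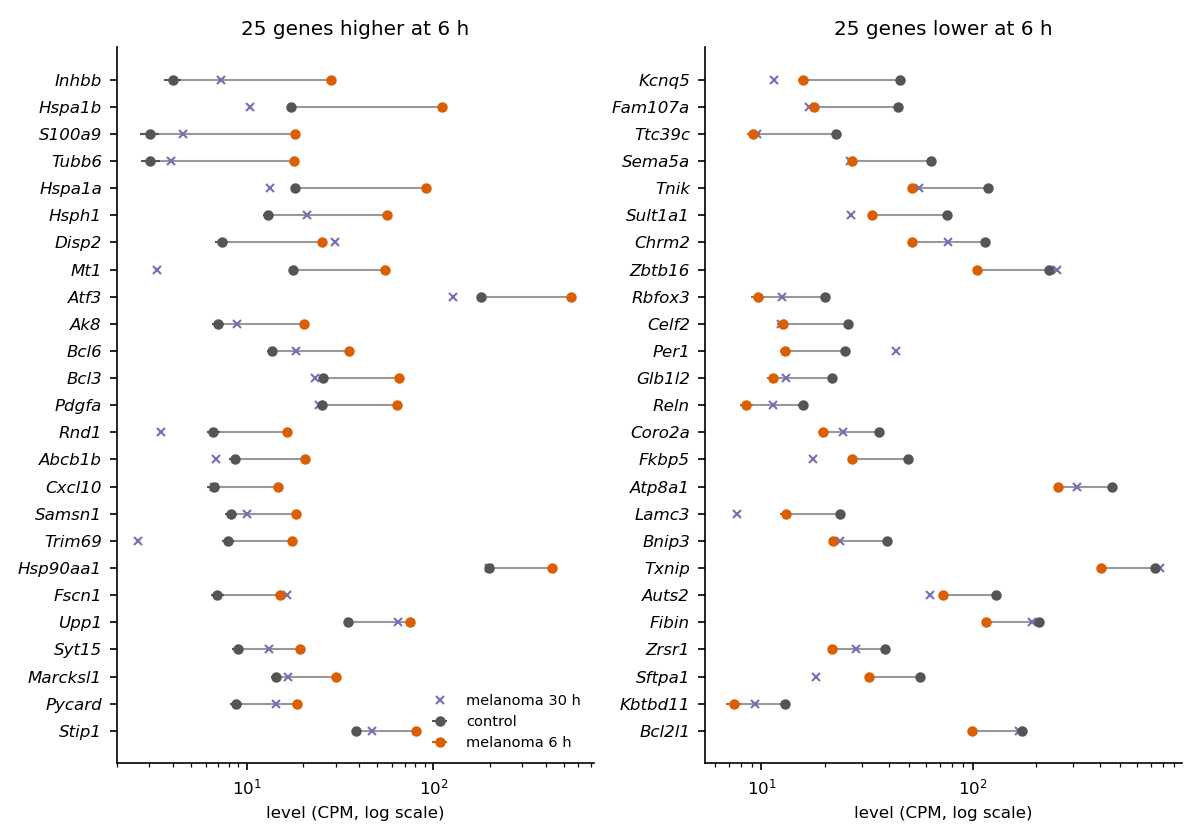
Level in CPM (log scale) of the 25 genes with the highest (left) and the lowest (right) ratio at 6 h among genes averaging 10 CPM or more, for the control (grey), 6 h (orange) and 30 h (violet crosses) libraries. Bars are exact Poisson 95% intervals of counting and are mostly narrower than the points. Inhbb leads the higher genes with 4.01 and 28.3 CPM and Kcnq5 the lower genes with 45.1 and 15.7 CPM.

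Of 28 tested cytokines and growth factors, which include the angiocrine factors, 5 were higher and 2 lower by 1.5-fold or more, beside 2.06% and 1.37% of all genes, and the median log2 ratio was 0.04. The higher genes were Csf2, Inhbb, Pdgfa, Hbegf and Vegfa, of which Csf2 and Inhbb passed the limit of 5 CPM only through the 6 h library. Csf2 (GM-CSF), a growth factor for myeloid cells, was almost silent in the control library at 0.682 CPM (62 UMIs) and stood at 9.42 CPM at 6 h, with 0.0491 CPM at 30 h. Vegfa, the main vascular growth factor (chr17:46016993-46032369), went from 192 to 367 CPM, and Pdgfa, which recruits mesenchymal cells, from 25.3 to 63.9 CPM. Hbegf, a ligand of the EGF receptor, went from 27.5 to 55.4 CPM. The lower genes were the Tie2 ligand Angpt1, at 27.5 and 17.6 CPM, and the lipase inhibitor Angptl4, at 8.27 and 3.25 CPM. Without barcodes that carried several markers of another cell type Angptl4 was at 2.99 and 1.78 CPM, and at 2000 UMIs it was found in 1.07% of control ECs and 21.8% of control barcodes with neither Pecam1 nor Cdh5. Endothelin-1 (Edn1), a vasoconstrictor, was at 316 and 258 CPM.

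The list of VEGF, Tie and Notch signalling leaves out the ligands Vegfa and Angpt1, which were past 1.5-fold and are given above. Of its 33 tested genes, the Notch ligand Dll1 was the 1 past 1.5-fold, at 35.7 and 61.7 CPM, beside 2.06% of all genes. The median was 0.03. The VEGF receptor Kdr stood at 450.3 and 461 CPM and Notch1 at 210 and 223 CPM, while the netrin receptor Unc5b was at 13.9 and 19.8 CPM and the TGF-beta co-receptor Eng at 975 and 1195 CPM. Of 13 tested coagulation and fibrinolysis genes, 1 was higher and 0 lower by 1.5-fold or more, beside 2.06% and 1.37% of all genes. The median log2 ratio was 0.21, with 8 genes above 0 and 5 below. Among those below, thrombomodulin (Thbd), the anticoagulant receptor of thrombin, was at 859 and 743 CPM. Von Willebrand factor (Vwf), which binds platelets, was at 299 and 229.6 CPM.

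For the recruitment of leukocytes, 2 of 18 tested adhesion genes were higher and 0 lower, beside 2.06% and 1.37% of all genes, with a median of 0.10. P-selectin (Selp), which captures rolling leukocytes, went from 13.9 to 26.9 CPM, and Mcam (CD146), a junctional adhesion molecule, from 118 to 204.5 CPM. Icam1 and Vcam1, the integrin ligands of firm adhesion, were at 259.6 and 360.4 CPM and at 43.9 and 61.2 CPM, both ratios of 1.39. E-selectin (Sele) was under the limit of 5 CPM, at 0.495 CPM in the control library and 6.53 CPM at 6 h. The inhibitory ligand Cd200 was at 660.2 and 450.1 CPM. The chemokine list, which includes the receptors Cxcr4 and Ackr3, had 6 genes with at least 5 CPM, 5 above and 1 below 0. By 1.5-fold or more, 2 were higher, beside 2.06% of all genes. These were Cxcl10, which attracts T cells (6.64 and 14.8 CPM), and Cxcl16 (45.3 and 76.2 CPM). Without barcodes that carried several markers of another cell type, Cxcr4 stood at 16.6 and 13.5 CPM. Cxcl12 and Cx3cl1 lay at log2 ratios of 0.09 and 0.30, and Cxcl9 was under the limit at 4.33 and 2.15 CPM.

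Interferon targets were described in separate lists. Of 35 type I interferon-stimulated genes, 29 lay above 0 and 2 were past 1.5-fold, beside 2.06% of all genes: Isg15 (117 and 176 CPM), a ubiquitin-like modifier, and the nucleic acid sensor Zbp1 (8.65 and 16.4 CPM). The median was 0.12, and Ifit1 (91.3 and 94.0 CPM) and Rsad2 (19.7 and 16.4 CPM), classical members of the group, lay close to or below 1. All 15 tested interferon-gamma-induced GTPases were above 0, with 4 higher by 1.5-fold, beside 2.06% of all genes, and a median of 0.42. Gbp2, a guanylate-binding protein, went from 82.5 to 143 CPM, Gbp4 from 51.2 to 84.4 CPM, Gbp6 from 25.4 to 41.1 CPM and Gbp5 from 24.5 to 37.3 CPM. Of 22 antigen presentation genes, 21 lay above 0 with a median of 0.25, and Ciita, the master regulator of MHC class II, was the 1 past 1.5-fold (9.59 and 17.9 CPM). The class II genes themselves, such as H2-Ab1 (log2 ratio 0.11) and H2-Aa (0.22), differed less.

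**Figure D3:**
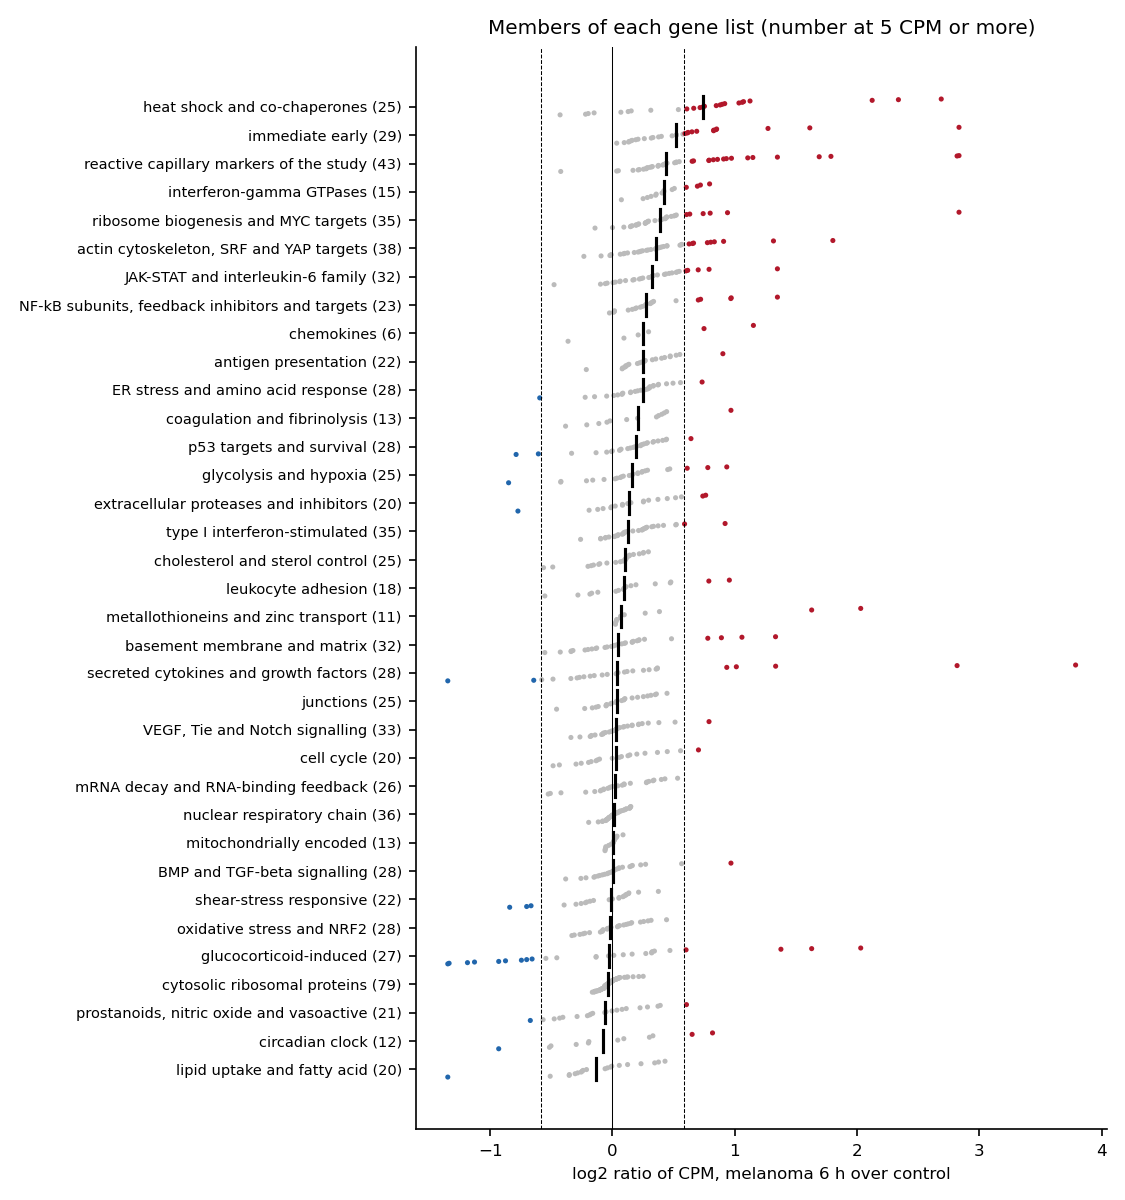
Log2 ratio of CPM at 6 h over control for every member with at least 5 CPM of the response lists, in order of their medians (black bars), with the number of members in parentheses. Each point is 1 gene, red or blue where past 1.5-fold (dashed lines). The chaperones (median 0.74) and immediate early genes (0.52) stand at the top and the lipid genes (-0.14) at the bottom.

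Of 38 genes of actin, SRF and YAP targets, 9 were higher, beside 2.06% of all genes, and 0 lower, with a median of 0.36. Actb, the cytoplasmic beta-actin, went from 1876 to 3275 CPM and Actg1, the gamma-actin, from 594 to 1058 CPM, and both were higher still at 30 h, at 3689 and 1189 CPM. Rnd1, a GTPase that loosens cell contacts, went from 6.60 to 16.5 CPM, and the matricellular protein Ccn1, a YAP and SRF target, from 64.7 to 111 CPM. Rhoc, a GTPase of actin remodelling, went from 223 to 345 CPM. Ccn2, which is commonly regulated with Ccn1, lay on the other side, with a log2 ratio of -0.23.

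Matrix genes as a list had a median of 0.04, with 4 of 32 higher, beside 2.06% of all genes. Col15a1 (3.02 and 7.60 CPM) and Col18a1 (3.58 and 7.45 CPM), basement membrane collagens that carry antiangiogenic fragments, were among them. Both passed the limit of 5 CPM only through the 6 h library. The others were the collagen chaperone Serpinh1 (133 and 247 CPM) and P4ha1, a subunit of an enzyme that hydroxylates collagen (53.3 and 91.5 CPM). The main basement membrane chain Col4a1, at a log2 ratio of 0.05, was not. Of 20 extracellular proteases and inhibitors, 2 were higher and 1 lower by 1.5-fold, beside 2.06% and 1.37% of all genes. The higher were Adamts9 and the serpin Serpina3g (38.7 and 65.6 CPM), and the lower was the membrane metalloprotease Mmp16 (15.96 and 9.34 CPM).

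Of 35 tested genes of ribosome production, 34 had a log2 ratio above 0, beside 46.4% of all genes, and 6 were higher by 1.5-fold, beside 2.06%, with 0 lower and a median of 0.39. Besides Myc, the members past the limit included its targets Odc1 (39.1 and 74.98 CPM) and Srm (11.01 and 19.2 CPM), enzymes of polyamine synthesis, and the nucleolar proteins Nop58 (42.4 and 71.0 CPM) and Gnl3 (31.9 and 49.5 CPM). The cytosolic ribosomal proteins themselves stood at a median of -0.04 with 0 of 79 past 1.5-fold. Of 25 glycolysis and hypoxia genes, 3 were higher and 1 lower, beside 2.06% and 1.37% of all genes, with a median of 0.16. The higher were Vegfa, P4ha1 and Ndrg1, and the lower was the mitophagy receptor Bnip3 (39.4 and 21.9 CPM).

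Of 28 genes of p53 and survival, 1 was higher and 2 lower, beside 2.06% and 1.37% of all genes, with a median of 0.19 and 21 genes above 0. The exonuclease Aen (20.2 and 31.6 CPM), a p53 target, was higher, and the antiapoptotic Bcl2l1 (171 and 99.1 CPM) and the stress protein Trp53inp1 (64.7 and 42.5 CPM) were lower. Cyclin D2 (Ccnd2, 88.8 and 145 CPM) was the 1 of 20 cell cycle genes past the limit, beside 2.06% of all genes higher. Of these 20 genes, 10 lay above and 10 below 0, with a median of 0.03. The proliferation gene Mki67 was under 1 CPM in both libraries, at 0.682 and 0.389 CPM.

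The list with the most lower members was that of glucocorticoid receptor targets, and it held genes on both sides: 9 of 27 tested were lower and 4 higher by 1.5-fold or more, beside 1.37% and 2.06% of all genes, and the median was -0.03. Zbtb16 (PLZF), a zinc finger repressor (chr9:48654297-48836222), stood at 229 CPM without melanoma and 105 CPM at 6 h (log2 ratio -1.13), and was at 250.4 CPM at 30 h. Fam107a, an actin-binding protein, stood at 44.6 and 17.7 CPM and the sulfotransferase Sult1a1 at 75.9 and 33.4 CPM. Fkbp5, the receptor's own co-chaperone and feedback inhibitor, stood at 49.2 and 26.8 CPM, Tsc22d3 (GILZ) at 205 and 129.8 CPM, and Klf9 at 520.5 and 320.2 CPM. The 4 higher members were Mt1, Mt2, the repressor Bcl6 (13.6 and 35.4 CPM) and Cebpb (31.1 and 47.2 CPM). Sgk1 (log2 ratio 0.09) and Dusp1 (0.16), classical targets of the same receptor, differed little. Summed over the list, the level was 6804 CPM in the control library and 7254 CPM at 6 h. At 30 h Fkbp5 and Fam107a were at 17.5 and 16.7 CPM, lower than in the control, while Tsc22d3 was at 203 CPM.

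The clock gene Per1, which glucocorticoids also induce, went from 24.8 to 13.0 CPM and was at 43.2 CPM at 30 h. Of the 12 tested clock genes, 6 lay above and 6 below 0. By 1.5-fold or more, Per1 was the 1 lower gene, beside 1.37% of all genes. The repressors Nr1d1 (9.80 and 17.3 CPM) and Bhlhe40 (13.8 and 21.7 CPM) were the 2 higher, beside 2.06%. The activator Arntl (Bmal1) stood at 37.3 and 26.3 CPM, a log2 ratio of -0.50, and Rora lay at -0.51. The time of day at which the mice were taken is not given in the sources used here.

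Of 22 genes that respond to blood flow, 11 lay above and 11 below 0 (median -0.01), and 3 were lower and 0 higher by 1.5-fold, beside 1.37% and 2.06% of all genes: Txnip, the thioredoxin inhibitor (729 and 407 CPM), Klf9, and Cyp1a1 (29.0 and 18.3 CPM), an aryl hydrocarbon receptor target. The flow-induced factor Klf2 was at 1638 and 1702 CPM and Klf4 at 921 and 1196 CPM, so that the principal regulators of the flow response were not lower. In vasoactive metabolism the cyclooxygenase Ptgs1 (163 and 102 CPM) was lower and Ddah1 (93.9 and 143 CPM), which degrades an inhibitor of nitric oxide synthase, higher. Hpgd, the prostaglandin-degrading enzyme and one of the most abundant EC transcripts, was at 6098 and 4605 CPM.

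The 25 genes with the lowest ratios included the axon guidance factor Sema5a (63.8 and 26.8 CPM), the splicing factor Rbfox3 (20.1 and 9.61 CPM) and the muscarinic receptor Chrm2 (115 and 51.7 CPM). Tnik, a kinase of Wnt signalling, went from 118 to 51.7 CPM, and Atp8a1, a phospholipid flippase, from 459.5 to 254 CPM. Kcnq5, a potassium channel at 45.1 and 15.7 CPM, was the lowest of all, but its UMIs sat in few barcodes: at 2000 UMIs a barcode it was detected in 1.18% of ECs in the control library and 1.11% at 6 h, with intervals that overlap (without thinning, 2.56% and 3.11%). Without barcodes that carried several markers of another cell type it stood at 2.69 and 3.68 CPM, which turned its log2 ratio to 0.45.

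Many of the lower genes are long. The median gene span, from the first to the last annotated base, was 51.1 kb for the genes lower by 1.5-fold, 14.9 kb for the higher and 25.4 kb for all tested. Spans over 100 kb were held by 40.3% of the lower, 8.61% of the higher and 14.1% of all tested genes. When all tested genes were ordered by span and divided into 5 bins, the median log2 ratio was 0.02 in the shortest bin and -0.09 in the longest, and the share of genes lower by 1.5-fold was 1.33% and 2.95%. The middle bins lay between 0.69% and 0.98%. At 30 h against the same control the bin medians went from 0.07 to -0.21. Span goes with intron content, and whether intronic reads were counted is not given in the sources used here.

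**Figure D4:**
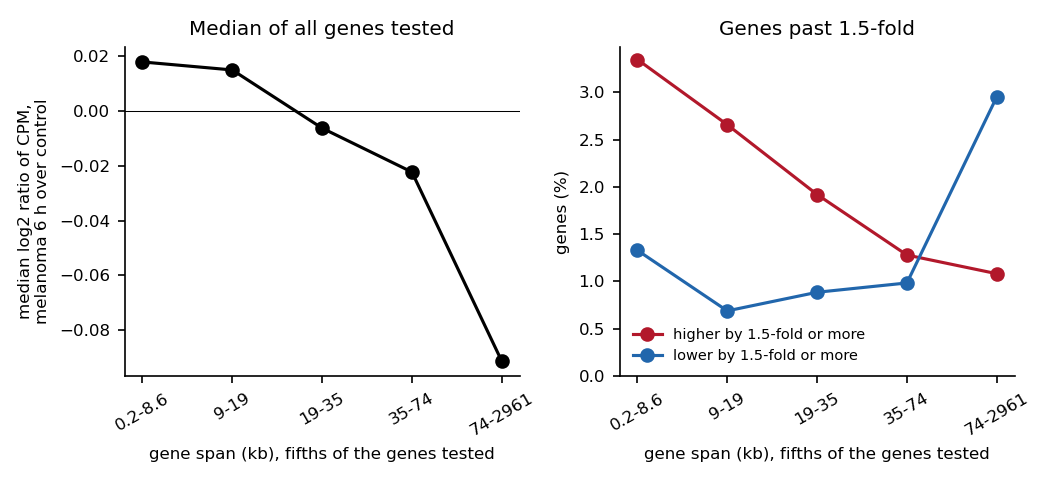
Median log2 ratio of CPM at 6 h over control (left) and share of genes past 1.5-fold (right) in 5 equal bins of tested genes ordered by gene span in kb (horizontal axis). The median runs from 0.02 to -0.09, and the share of higher genes from 3.35% to 1.08%.

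No gene of the lists that define ECs and their barrier differed by 1.5-fold. Pecam1 and Cdh5, which the gate used, are among them and support nothing here. Over all genes 2.06% were higher and 1.37% lower by 1.5-fold. A count of 0 in lists of this size, here and in those named below, is close to these shares and does not set the lists apart. The ratio stayed within that limit for 12 of 12 pan-endothelial genes (median -0.03), of which the sialomucin Emcn was the farthest from 1 (254 and 176 CPM), and for 25 of 25 tested junction genes (median 0.04), among them claudin-5 (Cldn5, 1956 and 1996 CPM), the tight junction protein of the blood vessel wall, and beta-catenin (Ctnnb1, 263 and 303 CPM). The polarity protein Pard3 was the lowest junction gene, at 282 and 205 CPM. Other lists without any member past 1.5-fold were the 28 genes of the NRF2 oxidative stress response, the 25 of cholesterol control, the 26 of mRNA decay, the 36 of the nuclear-encoded respiratory chain (median 0.01) and the 13 mitochondrially encoded genes (median 0.01). Of 20 lipid genes, 14 lay below 0, with a median of -0.14 and Angptl4 as the 1 lower by 1.5-fold, beside 1.37% of all genes. With barcodes of 300 genes or more and no upper limit, the lipid median turned to 0.033.

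Markers of the vessel types included 0 of 13 gCap markers past 1.5-fold (median -0.06), 1 of 12 aCap markers (Fibin, 205 and 115 CPM; median -0.14), and 2 of 9 vein markers lower (the serine protease Prss23, 170 and 104 CPM, and Amigo2, 34.1 and 22.2 CPM; median -0.34). Of 6 lymphatic markers 1 was lower, the extracellular matrix glycoprotein Reln (15.7 and 8.48 CPM), with a median of -0.28, and of 8 artery markers 0 were past the limit (median -0.07). Over all genes 1.37% were lower. In bulk sums of this kind, fewer cells of a type and less RNA per cell cannot be told apart. Counting barcodes by at least 6 detected aCap markers gave aCap shares of 18.1% in the control library and 16.3% at 6 h, and vein shares (at least 5 markers) of 6.27% and 5.11%. Arteries made up 4.48% and 4.03%, and lymphatic ECs 0.67% and 0.54%. The limits on marker numbers were set after the detection shares had been seen, and a barcode in which a marker itself is lower is counted less often.

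The classes were compared for the genes with the largest ratios. Since these were chosen on the same barcodes, of which the remaining class holds 70.5% in the control and 74.1% at 6 h, their direction there was largely fixed by the choice and the counts are a description only. Of the 25 most-higher genes, all 25 were higher in aCap barcodes, 21 of 23 with at least 20 UMIs in arterial, 22 of 24 in venous and 12 of 13 in lymphatic barcodes, and all 25 in the remaining barcodes, which hold the gCap. Mt1 was lower in arterial (78.3 and 52.8 CPM), venous (27.5 and 12.8 CPM) and lymphatic (188 and 112 CPM) barcodes, and was higher in aCap (9.22 and 26.3 CPM) and the remaining barcodes (12.5 and 67.2 CPM). The other opposite genes were Cxcl10 in arterial barcodes (5.74 and 4.65 CPM) and the adenylate kinase Ak8 in venous ones (5.37 and 5.21 CPM), both with intervals that include a ratio of 1. In the remaining barcodes Cxcl10 did not differ beyond counting error (7.79 and 7.81 CPM), and its difference lay in aCap (2.90 and 36.8 CPM) and venous barcodes (9.08 and 26.04 CPM). Inhbb was at 36.1 CPM at 6 h in the remaining barcodes, at 28.1 CPM in arterial, and at 9.01 and 9.16 CPM in aCap and venous ones. The log2 ratios of Inhbb ran in another order: 3.11 in aCap, 2.91 in the remaining, 1.71 in arterial and 1.36 in venous barcodes. The aCap ratio rests on 22 control UMIs, and its interval (2.46 to 3.82) overlaps that of the remaining barcodes. The level of Hspa1b at 6 h was more even, at 102 to 138 CPM in each of these 4 classes. Of the 25 most-lower genes, 25 of 25 were lower in aCap, 23 of 24 in arterial, 24 of 24 in venous, 13 of 14 in lymphatic and 25 of 25 in the remaining barcodes, with Kcnq5 and the surfactant gene Sftpa1 among these genes.

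For the genes that follow, the share of ECs in which a gene was found lay in the same direction as its CPM. Shares rest on the same UMIs and are no separate evidence. For Kcnq5, described above, the share did not differ beyond counting error. Each EC was thinned to 2000 UMIs, which left out 195 control and 197 6 h ECs with fewer. At that depth Inhbb was detected in 0.788% of control ECs (0.632% to 0.972%) and 3.48% at 6 h (3.13% to 3.85%), so that more than 96% of ECs had no UMI in either library. Bcl3 was found in 4.92% and 11.4% of ECs, Hspa1b in 3.04% and 15.6%, Atf3 in 19.1% and 36.3% and Vegfa in 29.7% and 45.6%. Zbtb16 went the other way, with 33.96% and 17.5%. As a background, the 101 barcodes in each library that had neither Pecam1 nor Cdh5 and at least 2000 UMIs (median depth before thinning of all such barcodes 2761 and 4062 UMIs) gave 0% and 1.98% for Inhbb, 1.98% and 11.9% for Bcl3, 3.96% and 10.9% for Hspa1b, 10.9% and 28.7% for Atf3, 9.90% and 19.8% for Vegfa and 25.7% and 8.91% for Zbtb16. The identity of these barcodes was not established. For Inhbb, a count of 0 of 101 allows a share of up to 2.97%. The exact binomial intervals of the libraries overlapped for Inhbb, Bcl3, Hspa1b and Vegfa. They did not for Atf3 (5.56% to 18.7% and 20.1% to 38.6%) and Zbtb16 (17.6% to 35.4% and 4.16% to 16.2%). These intervals cover counting error over the barcodes of 1 library a side, so neither overlap nor its absence is a test of a difference. The Bcl3 share at 6 h was as high in these barcodes as in ECs.

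**Figure D5:**
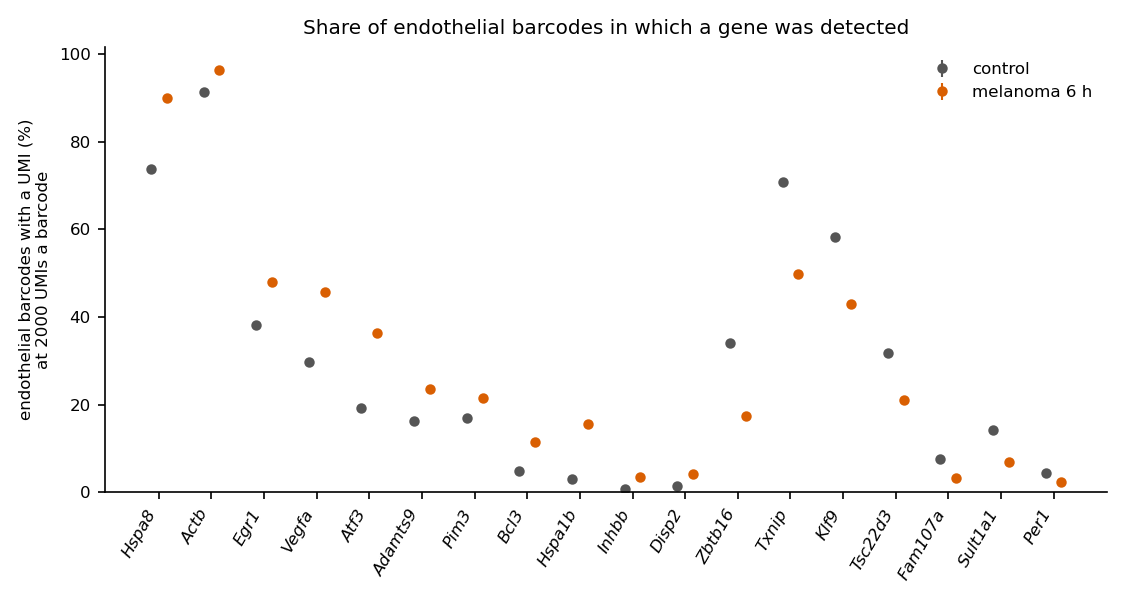
Share of ECs (percent, vertical axis) with at least 1 UMI of a gene after thinning each barcode to 2000 UMIs, in the control (grey) and 6 h (orange) libraries, with exact binomial 95% intervals that are mostly narrower than the points. The 11 genes on the left, from Hspa8 to Disp2, are higher at 6 h, such as Atf3 with 19.1% and 36.3%, and the genes from Zbtb16 on are lower.

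Markers of other cells moved with the comparison too. The neutrophil list went from 8.30 to 51.2 CPM in ECs, with S100a8 (2.00 and 16.03 CPM) and S100a9 (3.02 and 18.1 CPM), the calprotectin subunits, as the 2 of its 7 markers with at least 5 CPM. In empty droplets, S100a9 went from 9.29 to 95.5 CPM. Without barcodes that carried several markers of another cell type it stood at 0.419 and 3.05 CPM in ECs, and its log2 ratio was 2.59 over all ECs and 4.21 without Scrublet doublets. The melanoma list was at 23.6 CPM in the control library and 40.7 CPM at 6 h, and 18 of 10583 ECs at 6 h carried at least 3 melanoma markers, against 1 of 11231 in the control. Platelet genes were at 239 and 288 CPM, with 7 of 7 tested above 0. Red cell genes were lower, at 3255 and 2125 CPM, with all 6 below 0 and 4 past 1.5-fold, and alveolar epithelial genes were at 1180 and 935 CPM, with Sftpa1 (56.5 and 32.3 CPM) and Sftpd past 1.5-fold. Without barcodes that carried several markers of another cell type Sftpa1 was at 12.9 and 10.6 CPM. Both sets were several times more abundant in empty droplets than in ECs. In the droplets red cell genes were lower at 6 h (27157 and 17685 CPM) and alveolar epithelial genes higher (4850.2 and 5912 CPM).

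Without barcodes that carried several markers of another cell type, the leading genes differed as follows: Csf2 stood at 0.661 and 8.94 CPM, Myc at 1.45 and 9.65 CPM, Inhbb at 4.31 and 27.6 CPM, Atf3 at 182 and 557 CPM, and Zbtb16 at 231 and 106 CPM. Empty droplets, which hold RNA released from cells, carried these differences as well, with Hspa1b at 19.4 and 154 CPM, Atf3 at 157 and 488 CPM, Csf2 at 0 and 14.5 CPM, and Zbtb16 at 153 and 81.0 CPM. Surfactant genes put the share of free RNA at 12.7% of EC UMIs in the control library and 6.95% at 6 h. This estimate rests on surfactant genes alone, whereas red cell genes stood in nearly the same proportion of EC to empty droplet level in both libraries (3255 and 27157 CPM in the control, 2125 and 17685 CPM at 6 h). With the surfactant-based share subtracted, 211 genes were higher and 136 lower, of which 192 and 118 were also past 1.5-fold before.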

How the data were processed

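Single-cell RNA-seq (10x Genomics droplets) was made by the authors from sorted lung ECs. The deposited matrices hold UMI counts per gene and barcode, not normalized, made with Cell Ranger 7.2.0 per the file headers on mm10 and listing all barcodes, empty droplets included. The methods of the study name another Cell Ranger version, and whether intronic reads were counted is not given in the sources used here. The whole series has 3 libraries, 1 per group.

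From these counts, barcodes were filtered and summed per library as the report describes. Genes were compared as ratios of CPM where their mean was at least 5 CPM, and past 1.5-fold is a descriptive limit. With 1 library a group no test was run: intervals are exact (Poisson for CPM, conditional binomial for ratios, Clopper-Pearson for shares), at 95%, and cover counting error only. A count of 0 was given an upper limit of 3 counts. Shares were computed after thinning to 2000 UMIs. Empty droplets were barcodes with 1 to 100 UMIs. Doublets were not removed, and dropping those that Scrublet, run in scanpy 1.11.5, scored highest was an alternative. The calculation used python 3.11.15, numpy 2.4.6 and scipy 1.17.1 and was tested on simulated data.

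The comparison, its gene lists and the promoter motifs were chosen with earlier results of these data known. Named genes are the 25 highest and 25 lowest ratios among genes averaging 10 CPM or more (numbered gene models left out), up to 6 members of each list farthest from 1, members with a known defining role, Pecam1 and Cdh5, and the RT-qPCR panel. The plot of ratios against level also labels Ucp2, and the text gives Sele and Cxcl9, all chosen after their values were seen. Promoters were the RefSeq windows (GRCm38.p6), of which 79.6% of tested genes had one, and shares over all tested genes were not used. The shares of the lists rest on the same partial match. All promoters include those of genes under the CPM limit, so they are not a like background for lists of tested genes. Other coordinates are those of GENCODE M21. Alternatives changed filters, scaling, weights, the gate, gene limits, other-cell barcodes, doublets, free RNA, class shares and shared barcodes. A few results are not reported here because they concern withheld items.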

Additional observations from a re-analysis of the deposited data

Results flagged for a closer look

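Empty droplets, which the comparison of ECs does not use, held RNA of melanoma cells and neutrophils at a higher level at 6 h, while the summed levels of airway and red cell genes were lower there, with 0 of 6 genes higher in each list. The summed level of 8 melanoma markers in them was 18.3 CPM in the control library and 235.6 CPM at 6 h, a ratio of 12.9 (interval 9.97 to 16.9), and 8 of 8 genes were higher. The summed level of 7 neutrophil markers was 20.8 and 260.6 CPM, a ratio of 12.5 (9.84 to 16.1), with 7 of 7 genes higher. In ECs the same sums were 23.6 and 40.7 CPM for melanoma and 8.30 and 51.2 CPM for neutrophils. With surfactant genes as the measure, free RNA was 12.7% of EC UMIs in the control library and 6.95% at 6 h, whereas red cell genes stood in nearly the same proportion of EC to empty droplet level in both libraries (3255 and 27157 CPM in the control, 2125 and 17685 CPM at 6 h).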

How the results depend on the processing

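The numbers of genes past 1.5-fold depended on the filter on low levels: 420 higher and 317 lower at a mean of 1 CPM or more, 2414 and 2280 without a filter beyond 1 UMI in each library, and 102 and 68 at 20 CPM or more. The other 10 alternatives, 1 of them chosen after seeing the data, gave 201 to 222 higher and 124 to 168 lower genes. With 300 genes or more and no upper limit, the median log2 ratio was 0.13 for cholesterol genes and turned to 0.033 for lipid genes, and that of Sftpa1 turned to 0.24 from -0.81. With free RNA subtracted, the medians were 0.066 for the nuclear respiratory chain, 0.075 for mitochondrially encoded genes and 0.0066 for ribosomal proteins, Mt1 was at 2.77 in place of 1.63, and Sftpa1, a surfactant gene by which the share of free RNA was set, at -7.54. S100a9 was at 4.21 without Scrublet doublets and 3.63 with each barcode weighted alike, in place of 2.59. Without barcodes with 3 or more markers of another cell type, chosen after seeing the data, Kcnq5 turned to 0.45. Without thinning, shares in control and 6 h ECs were 2.30% and 7.67% for Inhbb, 15.7% and 32.3% for Bcl3, 36.6% and 54.4% for Atf3, 60.6% and 74.9% for Vegfa, 9.98% and 36.0% for Hspa1b and 71.7% and 46.9% for Zbtb16. The cause of each shift was not tested, except that thinning lowers every share and that the free RNA estimate uses surfactant genes. Of the list medians, 450 of 455 stayed within the range set by the spread of the members, and 499 of 550 ratios of named genes within their counting interval. Leaving out barcodes with 2 or more UMIs of any other-cell list was not run, since it left 11 control and 95 6 h barcodes. No paired analysis was possible because each group is 1 library, and at 5 CPM a library had 454 (control) or 437 (6 h) UMIs of a gene behind its value.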

Other observations

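Several other cell types contributed RNA to the empty droplets at different levels in the libraries. Airway epithelial genes, such as those of club cell secretory proteins, stood at 5427 CPM in empty droplets of the control library and 1305 CPM at 6 h, and in ECs at 329.7 and 253 CPM. The most abundant of them, Scgb1a1, was at 315 and 242 CPM in ECs, and at 310.4 and 64.6 CPM without barcodes with several markers of another cell type. Macrophage and monocyte genes stood at 862 and 1175 CPM in empty droplets and at 137 and 172 CPM in ECs, with 3 of 4 tested genes above a ratio of 1. Fibroblast genes were at 61.4 and 49.9 CPM in ECs, pericyte and smooth muscle genes at 77.1 and 69.4 CPM, and lymphocyte genes at 6.54 and 7.61 CPM. Mesothelial genes were at 3.03 and 2.27 CPM, and 0 ECs of either library carried several of them.

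Of the pericyte and smooth muscle list, the smooth muscle actin Acta2 was the 1 gene past 1.5-fold, at 2.89 CPM in control ECs and 10.1 CPM at 6 h. Without barcodes with several markers of another cell type it was at 1.72 and 4.22 CPM. It also stands on the list of actin and SRF targets, where it is counted among the 9 higher genes.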
